A study of Arabidopsis thaliana with 9 samples.

Results

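Line 409 was compared with line 348, both mutant lines of Arabidopsis thaliana with a T-DNA insertion, to find transcripts whose levels separate them. The comparison used 6 of the 9 arrays of the study, 3 of line 409 and 3 of line 348, and all 22746 probe sets that are not Affymetrix controls. RNA of whole plants had been hybridised to Affymetrix ATH1 arrays, on which each transcript is read by a probe set of short oligonucleotides, and the deposited table gives signals in intensity units. The other 3 arrays hold line C2S1, named as the wild type control in the titles and as a knock out in the label for genetic variation, and are given only beside the lines. All 3 lines were raised on plates of 25 seeds under a cycle of 16 h light and 8 h dark, at 21 C, and taken after 17 days at growth stage 1.04. The series title places the lines among epigenetic mutants, but the labels name no disrupted gene, so no targeted gene could be examined. Each mutant line may carry differences besides its insertion, and the labels do not say how many insertion events stand behind it. The labels do not say whether the 3 samples of a line are separate cultures. The p-values therefore measure only how these samples vary, which may be technical variation.

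A T-DNA insertion disrupts a gene by placing a piece of foreign DNA in it, and plant researchers use collections of such lines to study gene function. Epigenetic regulators act on DNA methylation, histones or chromatin structure, and keep transposons, repeats and some genes silent. Plants of this growth stage are rosette seedlings, and whole-plant RNA mixes leaf, shoot apex and root. In such a mixture, fewer cells of a type and less RNA per cell cannot be told apart.

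The lines had closely similar profiles. On the scale used throughout, log2 of the signal plus 5, the arrays of line 409 correlated among themselves at r = 0.964 to 0.972 across probe sets, those of line 348 at 0.976 to 0.977, and arrays of different lines at 0.969 to 0.974. Probe sets are not independent replicates, and these correlations only describe the arrays. The median log2 change, line 409 minus line 348, was 0.017 over all probe sets. Array replicate 3 of line 409 had the highest background, with a 20th percentile of signal of 6.26, against 4.43 to 5.44 on the other 5 arrays. Spike-in controls averaged 8.82 to 9.07 on the log2 scale in line 409 and 9.05 to 9.55 in line 348 (exact permutation p = 0.2, two-sided, with 0.1 the smallest possible for 3 against 3 arrays). For GAPDH the 3'/5' signal ratio, which rises with RNA degradation, was 1.63 to 1.87 in line 409 and 1.58 to 1.70 in line 348 (exact permutation p = 0.2). For actin it was 6.08 to 10.71 in line 409 and 6.38 to 11.35 in line 348. The ubiquitin ratio was 1.37 to 2.17 in line 409, highest on replicate 3, and 1.47 to 1.70 in line 348. The part of these ratios in the results was not tested. The leaf marker RCA, Rubisco activase, had signals of 5594 to 6159 in line 409 and 5306 to 6350 in line 348. Summed signals of the 2 measured root markers were 2352 to 3660 in line 409, against 2939 to 3387 in line 348. Nearly all of this sum was PYK10, with a log2 change of -0.01. EXPA7, the other root marker, stayed below the 40th percentile of each array. It read 11.5, 10.5 and 18.3 in line 409 against 1.33, 9.97 and 9.52 in line 348, a log2 change of 0.71. The measured flower marker stayed below the 40th percentile of every array, and no seed marker was measured.

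No transcript passed the test when all probe sets were in it. In limma, fitted on the 6 arrays across all probe sets, 0 of 22746 (0%) passed an adjusted p of 0.05. Before adjustment 1266 lay under 0.05 (5.57%), 682 of them higher (3%) and 584 lower (2.57%) in line 409. A share near 0.05 is reached also where the lines do not differ. The lowest adjusted p was 0.0723. Other settings of limma called 0 to 2 probe sets, and both of these were lower in line 409. With dim probe sets filtered out, 2 of 13833 were called (0.0145%), and with that filter and the control arrays in the fit, 2 of 14199 (0.0141%). What follows therefore describes probe sets whose values did not overlap between the lines, that is, where the 3 arrays of line 409 all lay above or all below the 3 of line 348. This held for 2481 probe sets (10.9%), 1406 higher (6.18%) and 1075 lower (4.73%) in line 409. No overlap is the most extreme order of 3 against 3 arrays, with an exact permutation p of 0.1, two-sided. A share near 0.1 is therefore reached also where the lines do not differ, and the count alone shows no difference between them.

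Many of these were dim, so the description keeps to probe sets above the 40th percentile of the array on all 3 arrays of the brighter line, called bright here. Of 13239 bright probe sets, 1548 did not overlap (11.7%), 758 higher (5.73%) and 790 lower (5.97%) in line 409. Of the 7063 that are assigned to exactly 1 gene, 818 did not overlap (11.6%), 425 higher (6.02%) and 393 lower (5.56%), and each such probe set is counted as a gene below. A probe set entered this group through the line in which it is bright, so these counts describe the arrays and are no test. The shares of 11.7% and 11.6% also lie near the 0.1 reached where the lines do not differ.

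The differences were small. Among the 425 genes higher in line 409 the median change was 0.32 on the log2 scale, 1.25-fold, and the largest was 0.95. Of these, 25 reached 1.5-fold (5.88%) and none reached 2-fold. Among the 393 lower genes the median size was 0.31, 1.24-fold, and the largest was 1.58. Here 23 reached 1.5-fold (5.85%) and 3 reached 2-fold (0.763%). Folds are on the scale of signal plus 5 and understate changes of dim transcripts. The 95% confidence interval stayed within 2-fold up or down for 96.5% of bright probe sets and for 76.7% of all. The number of arrays limits this precision. The rule has a sharp edge: AT2G28600, just inside it, had 134, 160 and 154 in line 409 against 164, 160 and 164 in line 348, and AT5G66960, just outside, had 32.7, 26.5 and 33.9 in line 409 against 26.5, 23.0 and 21.5 in line 348.

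**Figure D1:**
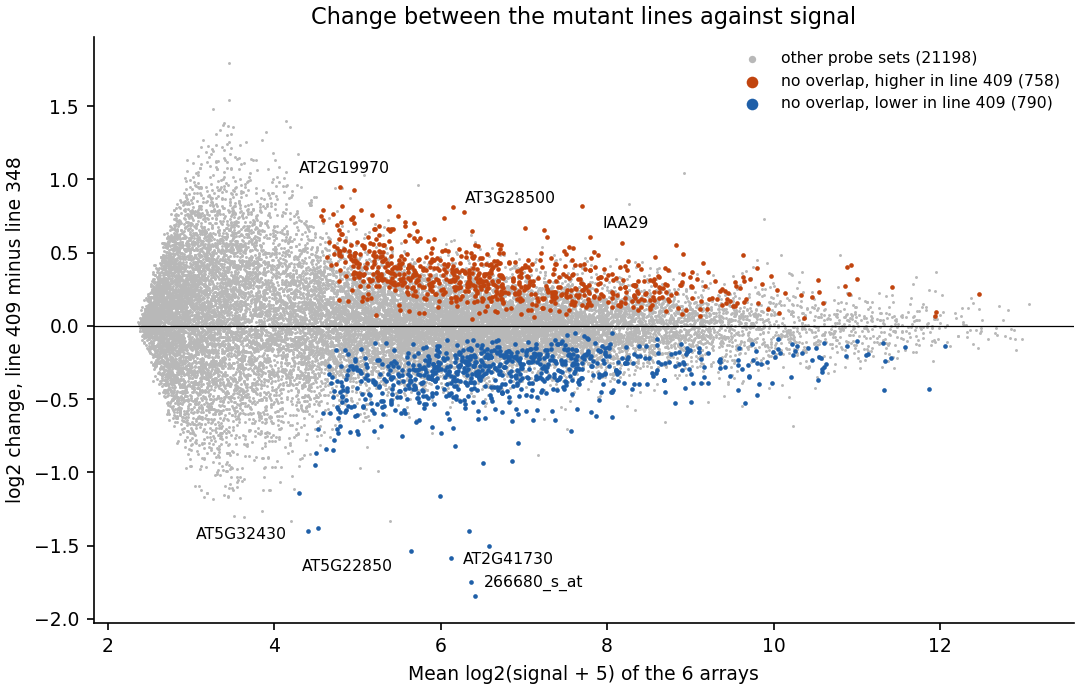
The log2 change, line 409 minus line 348, is plotted against the mean log2(signal + 5) of the 6 arrays, 1 point per probe set, with the 758 bright probe sets without overlap that were higher and the 790 that were lower in line 409 in colour. The coloured points lie mostly within 1.5-fold of no change, and the largest differences are downward, to -1.85, while none of the coloured upward points passes 0.95.

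The share of probe sets without overlap moved with signal, and differently for each direction. With all probe sets divided into 5 bins of equal size by mean signal, the share higher in line 409 was 7.71% in the dimmest bin, then 6.57%, 5.78%, 5.3% and 5.54% in the brightest. The share lower in line 409 was 3.25% in the dimmest bin, then 3.3%, 4.92%, 6.44% and 5.72%. The median log2 change was 0.07 in the dimmest bin and -0.01 in the brightest. The part of line 409 replicate 3, the array with the highest 20th percentile, in these shares was not tested. Genes without overlap were spread over the chromosomes: the share higher in line 409 was 4.59% to 6.69% of bright genes on chromosomes 1 to 5, and the share lower 4.72% to 5.88%.

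AT5G22850, which encodes a protease of the aspartyl protease family, showed the widest separation of any bright gene. Its signals were 30.8, 17.5 and 26.1 in line 409 and 83.7, 79.3 and 76.8 in line 348, with 86.3, 92.3 and 88.4 in the control. The lowest line 348 value lay 1.19 log2 units above the highest of line 409, and the control lay above both. The log2 change was -1.54 with SE 0.213, and limma gave adjusted p = 0.427 on the 6 arrays with no filter, 0.0118 with dim probe sets filtered out and 0.00245 with the filter and the control arrays in the fit. AT1G25510, another member of that family, was higher in line 409, at 27.9, 31.0 and 34.0 against 23.1, 22.2 and 19.1 in line 348, and was picked after its values were seen.

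Probe set 266680_s_at, to which the gene tables used here assign no gene, had the lowest p. It read 31.7, 37.6 and 53.2 in line 409 and 140, 152 and 148 in line 348, with 21.4, 19.4 and 45.3 in the control. Here line 348 stood apart, and the control overlapped line 409. The log2 change was -1.75 with SE 0.181, limma adjusted p = 0.0723. The ending of its name marks a probe set that can read more than 1 transcript.

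Different patterns appeared among the other bright probe sets at least 2-fold lower in line 409. In the first, the values of line 348 lay close together and those of line 409 were near background. The pseudogene AT5G32430 read 7.04, 6.19 and 11.6 in line 409 and 33.4, 32.3 and 23.6 in line 348, with the control at 26.2 to 37.8, a log2 change of -1.40 with SE 0.287. Probe set 264400_at, without a gene, read 13.1, 15.9 and 2.78 in line 409 and 29.0, 31.1 and 37.1 in line 348. Probe set 258723_at read 3.62, 13.5 and 9.70 in line 409 against 25.1, 22.0 and 25.9 in line 348, and the control overlapped both lines for each of these 2 probe sets.

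In the second pattern the arrays of line 348 were themselves far apart, with replicate 3 the highest and replicate 2 the lowest. AT2G41730, a gene of unknown function, read 40.1, 31.1 and 34.9 in line 409 and 90.2, 56.6 and 294 in line 348, with 26.7, 28.1 and 36.0 in the control. Its log2 change was -1.58 with SE 0.466, and it was -0.93 without line 348 replicate 3. Its probe set is of a class that can read related sequences.

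Probe sets 263231_at, 263403_at, 264042_at and 245038_at, all without a gene, had the same order of arrays in line 348. The most extreme, 263231_at, read 41.5, 33.9 and 45.6 in line 409 and 177, 67.9 and 316 in line 348, a log2 change of -1.85 that became -1.35 without line 348 replicate 3. Probe set 263403_at read 41.5, 53.5 and 63.5 in line 409 against 142, 104 and 259 in line 348. The lowest array of line 348 was in each case still above the highest of line 409. Values of 264042_at were 36.6, 55.4 and 44.0 in line 409 and 132, 66.6 and 226 in line 348, with a log2 change of -1.40, and -0.99 without that replicate. For 245038_at they were 35.2, 46.5 and 33.0 in line 409 and 105, 53.8 and 130 in line 348. All 5 probe sets kept line 409 below line 348 with any single array left out, which values without overlap must do. These 7 probe sets without a gene were picked after their values were seen.

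**Figure D2:**
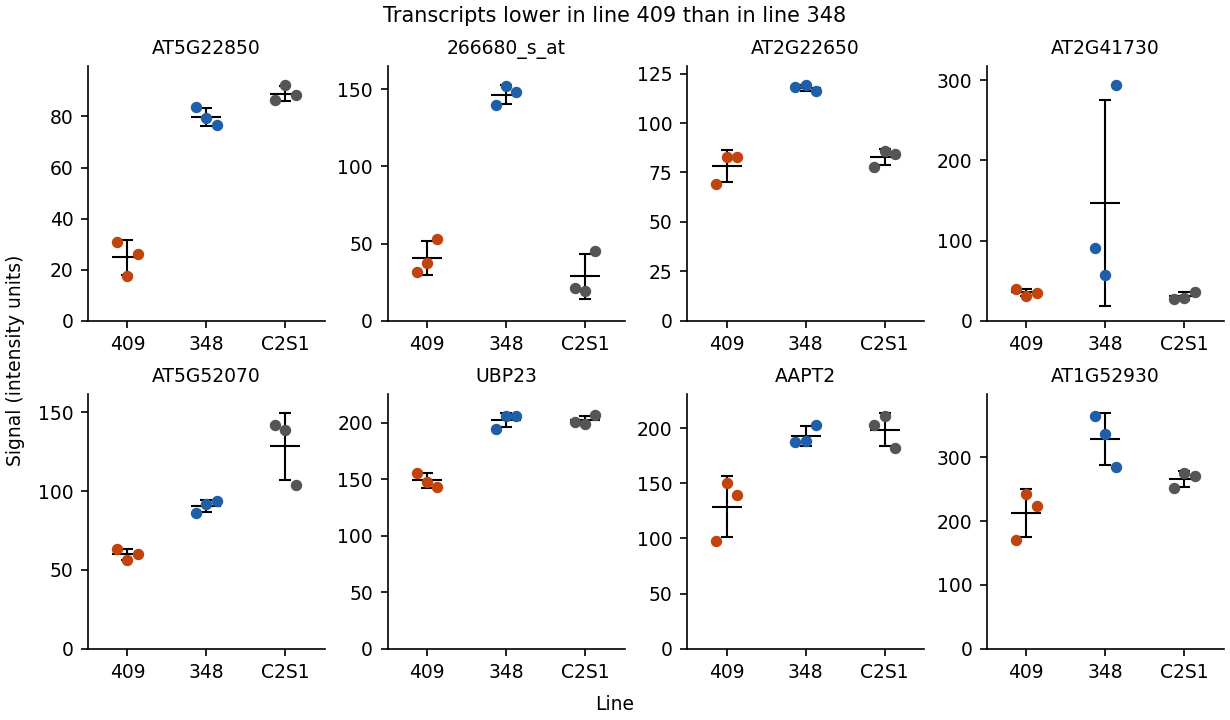
Signals in intensity units are plotted for 8 transcripts lower in line 409, 1 point per array, with the mean and SD of the 3 arrays of line 409, line 348 and the control C2S1. AT5G22850 sits at 17.5 to 30.8 in line 409 and at 76.8 to 92.3 in the other lines, 266680_s_at is high in line 348 only, and the line 348 values of AT2G41730 run over 56.6 to 294.

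The next genes were chosen by the size of the gap, the distance on the log2 scale between the nearest values of the lines. Up to 15 genes were taken in each direction. Apart from AT5G22850, described above with limma adjusted p = 0.427, all of these had limma adjusted p = 0.863. None passed in this fit without a filter, and each is described by its values. Genes first named below for another reason, some with overlapping values, had limma adjusted p of at least 0.863. Gaps of at least 0.3 were found in 18 genes higher and 15 genes lower in line 409.

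Several of the lower genes act on proteins and lipids. UBP23, a ubiquitin-specific protease that removes ubiquitin from proteins, had 156, 148 and 143 in line 409 and 195, 206 and 206 in line 348, a log2 change of -0.43 with SE 0.10. Its control values, 199 to 207, overlapped those of line 348. AAPT2, an aminoalcoholphosphotransferase of phosphatidylcholine and phosphatidylethanolamine synthesis, had 97.7, 150 and 139 in line 409 and 187, 188 and 203 in line 348, with a log2 change of -0.58 and SE 0.156. AT4G30020, a subtilisin-like protease, averaged 94.1 ± 8.45 in line 409 and 146 ± 20.1 in line 348 (SD, n = 3 each). For both of these genes the control overlapped line 348 only, so line 409 was the line that stood apart.

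In other lower genes the control lay elsewhere. AT2G22650, an oxidoreductase of the FAD-dependent family, had 68.9, 82.8 and 82.7 in line 409 and 118, 119 and 116 in line 348, with 78.0, 86.0 and 84.2 in the control. Its log2 change was -0.56 with SE 0.128. AT5G52070, whose protein carries an agenet domain, had 63.2, 56.3 and 60.2 in line 409 and 85.9, 91.9 and 93.6 in line 348, a log2 change of -0.56 with SE 0.136. Its control values of 104 to 142 lay above both lines. AT5G42830, an acyltransferase of the HXXXD family, had 35.8, 58.4 and 56.6 in line 409 against 78.4, 109 and 86.8 in line 348, and the control overlapped both.

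The other lower genes of this group had signals below 100. AT1G77550, a tubulin-tyrosine ligase family member, averaged 65.2 ± 8.22 in line 409 and 95.4 ± 2.03 in line 348. AT1G79540, of the pentatricopeptide repeat family whose members bind organelle RNA, averaged 25.0 ± 3.39 in line 409 and 38.1 ± 2.07 in line 348. AT1G79030, AT4G39630 and AT2G07776 had log2 changes of -0.58, -0.55 and -0.70. For all 5 the control overlapped line 348 only.

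Among the genes higher in line 409, IAA29 is a repressor of the auxin response whose transcript is known to be induced by shade and warmth. It had 307, 248 and 256 in line 409 and 171, 168 and 185 in line 348, with 227, 191 and 179 in the control. Every line 409 value lay above every value of the other lines, and the log2 change was 0.61 with SE 0.114. The other measured auxin-response genes differed in direction: GH3.3, which conjugates auxin to amino acids, had a log2 change of -0.27, and WES1, of the same enzyme family, of -0.05, each with overlapping values. The median of the 3 measured genes of this list was -0.05, against 0.02 for all probe sets.

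AT5G02280 encodes a subunit of TRAPP, a complex of vesicle traffic. Its signals were tight, at 214, 226 and 218 in line 409 and 147, 148 and 154 in line 348, with 145, 163 and 155 in the control. The log2 change was 0.54 with SE 0.0975, and line 409 alone was high. GAUT15, a galacturonosyltransferase-family enzyme of the cell wall, had 71.5, 66.7 and 79.3 in line 409 and 51.2, 47.6 and 49.4 in line 348, a log2 change of 0.51 with SE 0.153. AT5G66390, a class III peroxidase, had 36.9, 36.6 and 52.1 in line 409 and 27.7, 27.9 and 24.1 in line 348, with the control between the lines at 29.2 to 33.9.

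Genes of metabolism and regulation were also in this group. AT3G60290, of the 2-oxoglutarate-dependent oxygenase family, averaged 48.3 ± 9.61 in line 409 and 28.7 ± 1.43 in line 348. AT5G45920, a lipase-like esterase of the GDSL family, averaged 40.5 ± 17.7 in line 409, where replicate 3 reached 61.0, and 20.2 ± 1.04 in line 348. AT2G38300, a MYB-like transcription factor, had 29.8, 23.1 and 25.1 in line 409 against 15.7, 15.9 and 15.5 in line 348. The control values of this factor, 18.5 to 22.3, lay between the lines.

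AT3G15040, of a plant family linked to senescence, averaged 120 ± 10.4 in line 409 and 80.0 ± 3.14 in line 348, a log2 change of 0.56 with SE 0.125. AT3G12030, a gene of unknown function here, had 175, 154 and 182 in line 409 and 122, 120 and 116 in line 348, with the control below both at 106 to 113. AT1G53640, AT3G03020, AT5G50330 of the protein kinase superfamily, AT1G19540 of the NmrA-like family and AT5G01260 had log2 changes of 0.65, 0.66, 0.44, 0.51 and 0.72. For each of these 5 the control overlapped line 348 only.

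The largest change among bright genes higher in line 409 was that of AT2G19970, at 31.1, 41.2 and 29.6 in line 409 against 22.8, 8.19 and 17.0 in line 348. It was picked for this size after its values were seen. On line 348 replicates 2 and 3 it lay below the 40th percentile of the array, 22.0 and 20.6. The control arrays of AT2G19970 covered 2.52 to 35.5 and so overlapped both lines. Probe set 250221_at, without a gene and picked after its values were seen, was brighter, at 241, 290 and 287 in line 409 and 189, 145 and 128 in line 348, with a log2 change of 0.82 and SE 0.151.

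**Figure D3:**
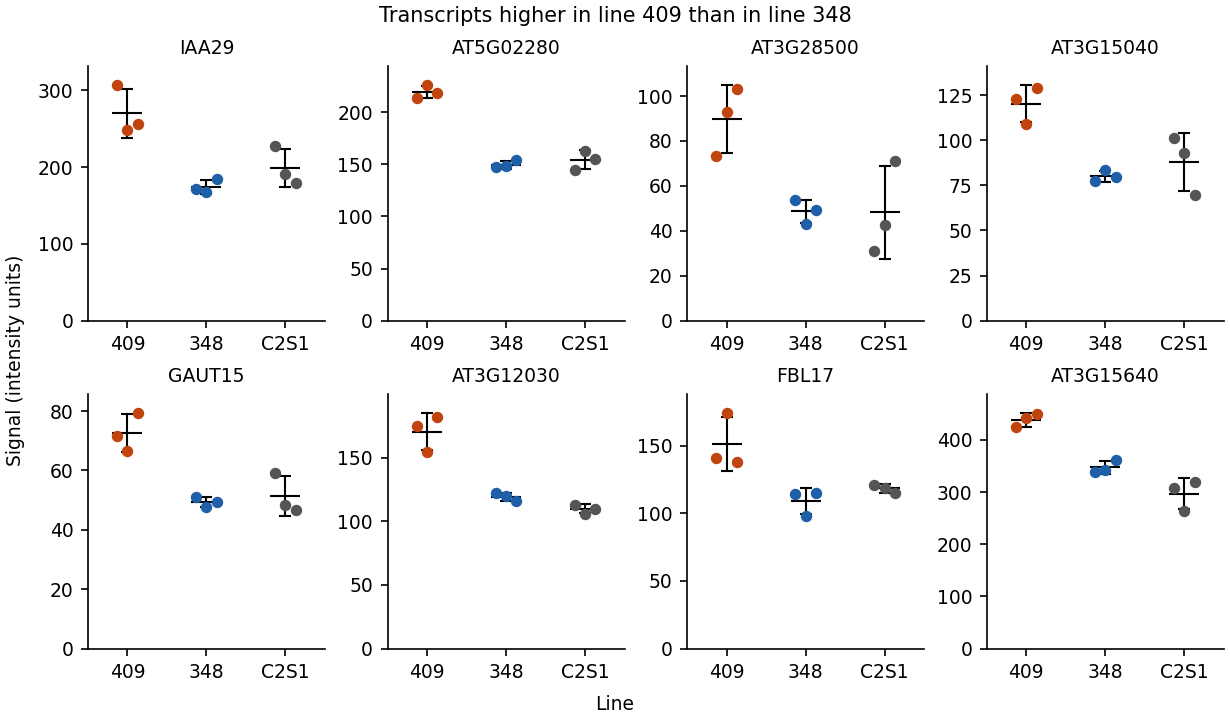
Signals in intensity units are plotted for 8 transcripts higher in line 409, 1 point per array, with the mean and SD of the 3 arrays of line 409, line 348 and the control C2S1. IAA29 and AT5G02280 sit above both other lines on every line 409 array, at 248 to 307 and at 214 to 226.

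Genes of ribosomes and translation lay on both sides. AT3G28500, an acidic ribosomal protein of the P2 type that sits in the stalk of the large subunit, was higher in line 409, at 73.2, 92.9 and 103 against 53.6, 43.1 and 49.1 in line 348, a log2 change of 0.81 with SE 0.173. Its family member AT3G44590 was lower, at 708, 759 and 795 in line 409 and 963, 1047 and 1143 in line 348, a log2 change of -0.47 with SE 0.108. These genes of the same type thus separated the lines in opposite directions. AT4G10450, a protein of the large ribosomal subunit, had 434, 437 and 401 in line 409 and 674, 524 and 645 in line 348. FUG1, a translation initiation factor of the chloroplast, had 959, 1111 and 1058 in line 409 and 1284, 1409 and 1289 in line 348. Of these, AT3G44590, AT4G10450 and FUG1 were picked after their values were seen, and their control values overlapped line 348 only.

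Ribosome assembly factors help to process ribosomal RNA and to build the subunits in the nucleolus. AT3G10530, similar to the yeast factor UTP7 of the small-subunit processome, was lower, at 51.0, 66.3 and 65.2 in line 409 and 92.6, 86.8 and 84.6 in line 348. AT1G52930, of the BRX1 type needed for the large subunit, had 171, 243 and 224 in line 409 and 365, 336 and 285 in line 348, with the control between at 252 to 276. AT5G52820, similar to the yeast and animal factor NOTCHLESS, had 138, 149 and 158 in line 409 and 185, 220 and 195 in line 348, with the control above both.

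A list of 44 assembly factors was then written because AT3G10530, AT1G52930, AT5G52820 and AT3G24080 had been seen, so it is no independent evidence. Of its 21 measured genes, 6 were lower without overlap (28.6%) and 0 higher, against 4.73% and 6.18% of all probe sets, and the median log2 change was -0.12, against 0.02. Without those 4 genes, 2 of 17 were lower without overlap (11.8%), with a median of -0.09. These were AT3G23620, at 150, 191 and 178 in line 409 against 247, 208 and 230 in line 348, and AT3G15460, another BRX1-type gene, at 55.4, 60.2 and 64.7 in line 409 and 76.7, 81.1 and 70.7 in line 348. Others differed little, such as AT3G03920 with a log2 change of 0.01, and DIM1A, an rRNA methyltransferase, had 0.15.

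Low-oxygen genes are induced when roots or shoots lack oxygen. All 5 that were measured had a higher mean in line 409, as did 52.7% of all probe sets, with log2 changes of 0.17 to 0.48 and a median of 0.33, against 0.02 for all probe sets. AT4G10270 was the member without overlap, at 651, 723 and 593 in line 409 against 548, 352 and 587 in line 348, and its gap was only 0.01. AT4G27450 had 1544, 1384 and 991 in line 409 against 1018, 786 and 962 in line 348, and AT1G33055 had 415, 467 and 398 in line 409 and 403, 260 and 372 in line 348. Values of the other 2, PDC2, a pyruvate decarboxylase, and AT3G10040, a transcription factor, overlapped more widely. Line 348 replicate 2 was the lowest array of that line for 4 of the 5 genes, and without it the median of the list was 0.20. The control arrays were also uneven: AT4G10270 read 240, 227 and 575 there.

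**Figure D4:**
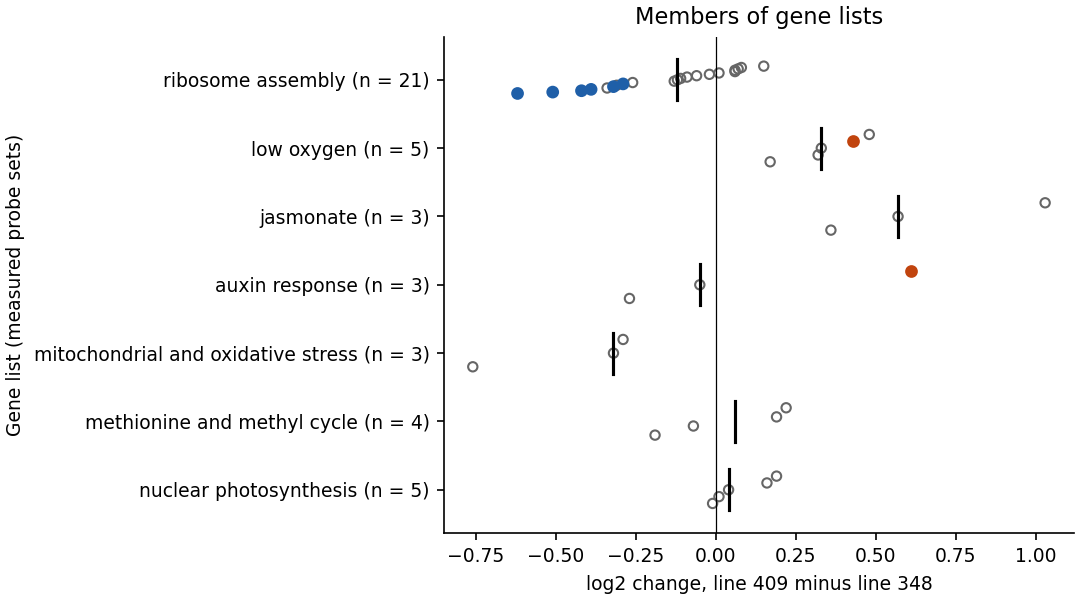
The log2 change, line 409 minus line 348, is plotted for each measured member of 7 gene lists, with filled points where the values of the lines do not overlap and a vertical bar at the median. The ribosome assembly list, written after values were seen, has 6 filled points below 0, the 5 low-oxygen genes lie at 0.17 to 0.48, and the nuclear photosynthesis genes lie within 0.19 of 0.

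Defence and stress genes were sparse on the tables used here. All 3 measured jasmonate-response genes had a higher mean in line 409, as did 52.7% of all probe sets, each with overlapping values. Their median log2 change was 0.57, against 0.02 for all probe sets. Only PDF1.2 was bright, with a log2 change of 0.57. PDF1.2b, at 1.03, was read by a probe set that can pick up related sequences. THI2.1, a thionin, was dim, with 7.00, 12.6 and 17.4 in line 409 against 7.57, 8.31 and 8.26 in line 348. GRX480, a glutaredoxin of salicylic acid signalling, did not overlap but was dim, at 16.8, 14.5 and 19.3 in line 409 and 2.81, 8.71 and 9.63 in line 348. Of the WRKY transcription factors, WRKY47 was higher, at 83.4, 81.9 and 109 in line 409 against 64.1, 66.6 and 73.2 in line 348, and WRKY6 was lower, at 31.0, 36.5 and 41.8 in line 409 and 49.0, 51.7 and 44.8 in line 348.

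Glutathione transferases and glycosyltransferases attach glutathione or sugars to toxins and metabolites. Of 12 glutathione transferases found by name, 9 had a lower mean in line 409 (75%, against 47.3% of all probe sets), with a median log2 change of -0.22. Of the 12, 2 did not overlap, both lower (16.7%, against 4.73% of all probe sets). The bright one was GSTU26, at 127, 160 and 141 in line 409 and 187, 181 and 171 in line 348. Of 43 glycosyltransferases, 2 were lower without overlap (4.65%) and 0 higher, with a median of -0.04, and the bright one was UGT73B4, at 18.7, 23.4 and 20.4 in line 409 and 27.3, 25.6 and 31.8 in line 348 (limma adjusted p = 0.887). AT2G21640, a marker of mitochondrial and oxidative stress, had 17.0, 27.1 and 30.0 in line 409 and 45.7, 29.7 and 63.7 in line 348, which overlapped by 0.01 on the log2 scale.

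Of 28 expansins and xyloglucan enzymes, which loosen and remodel the wall, 4 were higher without overlap (14.3%, against 6.18% of all probe sets) and 0 lower. The median log2 change was 0.11. Only 12 of the 28 were bright, and their median was 0.01, against -0.01 for all bright probe sets. Of these 12, 1 was higher without overlap, against 5.73% of all bright probe sets. The bright one, XTH19, had 74.5, 74.3 and 108 in line 409 and 62.4, 67.8 and 73.3 in line 348 (limma adjusted p = 0.874). Of 24 cytochrome P450 genes 2 were higher without overlap (8.33%), and the bright one, CYP71B37, had 26.9, 26.4 and 27.2 in line 409 against 22.2, 16.7 and 12.7 in line 348. Their median was 0.06. AQI, which entered the aquaporin list by its name as an interactor of aquaporins, had 265, 255 and 258 in line 409 against 238, 223 and 215 in line 348, and the control overlapped both.

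Chromatin and cell-cycle genes are of interest in lines described as epigenetic mutants. HIS1-3, a drought-induced linker histone, had 20.2, 12.2 and 16.9 in line 409 and 35.4, 32.0 and 22.4 in line 348, a log2 change of -0.70 with SE 0.276. Among 5 histones found by name, it was the 1 without overlap (20% lower without overlap, against 4.73% of all probe sets). Of these 5, 4 had a lower mean, as did 47.3% of all probe sets. AT1G05910, a bromodomain ATPase, had 67.3, 57.5 and 69.3 in line 409 against 79.5, 95.7 and 86.5 in line 348, and AT1G79950, a helicase of the RTEL1 type that acts in genome stability, had 91.4, 80.4 and 99.0 in line 409 and 114, 136 and 124 in line 348.

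On the higher side, FBL17, an F-box protein that removes inhibitors of cell division, had 141, 174 and 138 in line 409 and 114, 98.2 and 115 in line 348, a log2 change of 0.45 with SE 0.132. The gene 3xHMG-box1, whose protein binds chromosomes in mitosis, had 23.5, 26.7 and 26.7 in line 409 and 18.0, 7.96 and 15.2 in line 348, with the control overlapping line 409. The DNA demethylase DME, the measured member of the list of DNA methylation and silencing genes, was read by 3 probe sets with overlapping values. The bright one had a log2 change of 0.08, and the other 2, both dim, had a lower mean in line 409. AT1G05910, AT1G79950, FBL17 and 3xHMG-box1 were picked after their values were seen.

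Pseudogenes, a class that includes remnants of transposons, were mostly dim: 13 of 989 probe sets were bright. Without overlap, 95 were higher (9.61%, against 6.18% of all probe sets) and 39 lower (3.94%, against 4.73%). In the dimmest bin of all probe sets the shares were 7.71% and 3.25%. Of the bright ones 0 were higher without overlap and 4 were lower (30.8%, against 5.73% higher and 5.97% lower of all bright probe sets). Besides AT5G32430 these included AT3G43510, at 48.8, 54.0 and 63.4 in line 409 against 83.7, 79.0 and 75.5 in line 348, and AT4G05510, at 53.6, 89.2 and 69.6 in line 409 and 97.6, 120 and 114 in line 348.

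Of 69 plastid-encoded probe sets, 45 had a lower mean in line 409 (65.2%, against 47.3% of all probe sets), with a median log2 change of -0.06 and a range of -0.68 to 0.37. Only 3 did not overlap (4.35%, against 10.9% of all probe sets). These were atpH, a subunit of ATP synthase, at 2822, 2869 and 3373 in line 409 and 2413, 2646 and 2461 in line 348, rpl33 of the plastid ribosome, lower by a log2 change of -0.43, and rpoB of the plastid RNA polymerase, lower by -0.32. Some plastid genes differed by more: rpl36, of the plastid ribosome, had a log2 change of -0.68, ycf3, an assembly factor of photosystem I, of -0.52 and psbB, of photosystem II, of -0.49, each with overlapping values. In limma 5 of the 69 had p under 0.05 before adjustment and 0 after it. The median of the list turned to 0.05 without line 409 replicate 2. The 5 measured members of the nuclear photosynthesis list all overlapped, with log2 changes of -0.01 to 0.19. LHCB4.3, a light-harvesting protein of photosystem II that is encoded in the nucleus and stands outside that list, did not overlap, with a log2 change of 0.35 and SE 0.136. It had 106, 121 and 110 in line 409 and 97.4, 88.7 and 76.3 in line 348.

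NOL, a chlorophyll b reductase of pigment breakdown, had 118, 86.0 and 81.3 in line 409 against 145, 135 and 146 in line 348, and AT3G15640, a subunit of mitochondrial cytochrome c oxidase, had 424, 442 and 449 in line 409 and 338, 343 and 361 in line 348. Both were picked after their values were seen, and for AT3G15640 the control lay below both lines at 264 to 319.

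The control arrays, which had no part in choosing the genes, were set beside the 818. For 164 of the 425 higher genes (38.6%) the control overlapped the range of line 348 only, and for 67 (15.8%) that of line 409 only. It overlapped both in 168 (39.5%) and neither in 26 (6.12%), of which 7 had the control between the lines. For the 393 lower genes these counts were 169 for line 348 only (43%), 53 for line 409 only (13.5%), 136 for both (34.6%) and 35 for neither (8.91%), with the control between in 4. In both directions the control thus shared the range of line 348 alone more often than that of line 409 alone, which is a description of these 9 arrays, and overlaps were not tested. The same shares were not taken over all bright genes. Arrays of line 409 correlated less among themselves (r = 0.964 to 0.972) than those of line 348 (0.976 to 0.977). The part of this in the counts was not tested.

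**Figure D5:**
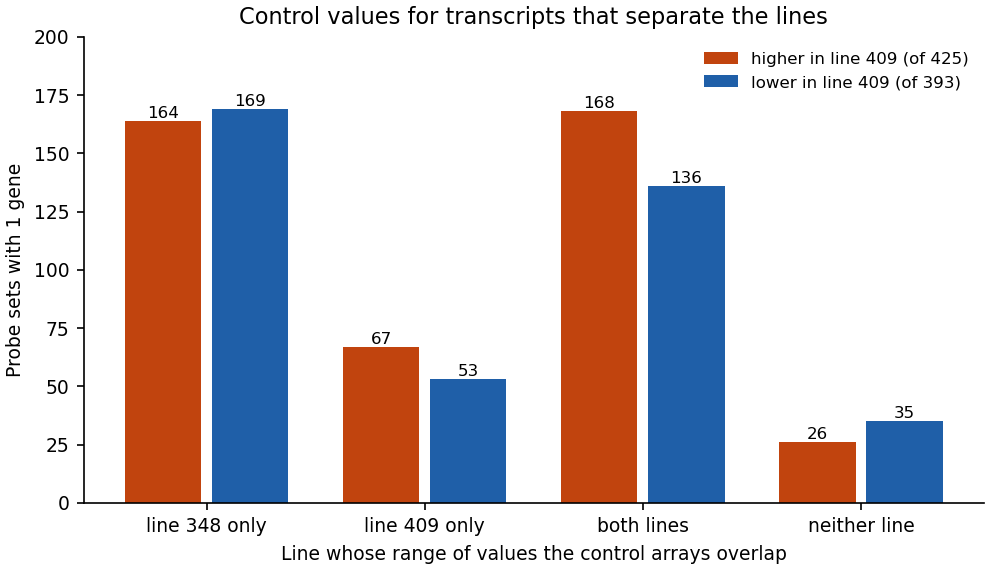
Bars count the bright genes without overlap between the lines, 425 higher and 393 lower in line 409, by which line's range of values the 3 control arrays overlap. In both directions the bar for line 348 only, 164 and 169, is taller than the bar for line 409 only, 67 and 53.

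The spread within the lines also differed by direction. Among the 393 lower genes, the 3 arrays spanned at least 1.5-fold in 28 genes within line 409 and in 9 within line 348. Among the 425 higher genes they did so in 14 genes within line 409 and in 23 within line 348. In each direction the dimmer line was thus the one with more genes of wide spread. Only the brighter line had to pass the brightness rule, so these counts depend on how the genes were chosen and are no result about the lines.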

How the data were processed

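The authors made signal intensities on a linear scale. The submitters' processing notes name MAS5 and GCOS, with versions not given in the sources used here. For each array, the 2% trimmed mean of the deposited intensity values was 100, and that scaling was kept. The 64 Affymetrix control probe sets were left out. Of 22746 others, 13513 had 1 gene in the platform annotation joined to the RefSeq gene table (TAIR10.1), 503 several and 8730 none, and 77 single-gene probe sets were not found in the latter.

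Log2(signal + 5) of the 6 arrays was tested in R 4.3.3 with limma 3.58.1, with moderated variances and an intensity trend (4 residual and 5.53 prior degrees of freedom), adjusted by Benjamini-Hochberg over all probe sets. No further normalization or filter was applied, and the code was checked on simulated data. Over all probe sets the SE of the change had a median of 0.222, and 0.163 over bright ones. Alternatives were quantile normalization, median centring, no pseudocount, a pseudocount of 20, filters at the 40th and 60th percentile (on at least 3 arrays), all 9 arrays, no trend, array weights, a replicate block (statmod 1.5.0), only probe sets with 1 gene, and each array left out.

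The text names up to 15 genes per direction with the largest gap, up to 3 such members of each gene list, and others as picked after their values were seen. Of 53 lists, 38 had a matched probe set and 13 a bright member without overlap. Lists of gene families were matched by words in gene symbols and synonyms, so they miss members named only by locus. Lists without a match, such as ribosomal proteins, peroxidases and aspartyl proteases, therefore do not mean that no such gene was measured. The comparison, genes and lists were chosen with earlier results of these data known. In their titles the line 348 arrays carry the numbers 1, 1 and 3, and replicates are numbered here by the order of the samples. Deviations of arrays with the same title number correlated at -0.00873, -0.0364 and -0.0673, so the numbers were not taken as pairs.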

Additional observations from a re-analysis of the deposited data

Results flagged for a closer look

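For 4 genes, all arrays of a mutant line lay above every control array and all arrays of the other line below. AT2G38300, a MYB-like factor, was above the control in line 409 and below it in line 348, with a log2 change of 0.58 between the lines. AT5G66390, a peroxidase, was also above the control in line 409 and below it in line 348, with a log2 change of 0.56. FBL17, an F-box protein, was too, with 0.45. AT1G52930, of the BRX1 type, was below the control in line 409 and above it in line 348, with -0.62. The difference between the lines is itself the limma contrast, with adjusted p = 0.863 for each of the 4, so none passed. These genes were taken from the 71 named probe sets. Among all bright genes without overlap, the control lay between the lines in 7 of 425 higher and 4 of 393 lower ones. Whether so few exceed what random order of the arrays gives was not tested.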

How the results depend on the processing

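The count of probe sets called by limma was 0 in the fit reported, and also with a pseudocount of 20, with no intensity trend, with only probe sets with 1 gene and with the replicate block, where 1206 had an unadjusted p under 0.05. It was 1 with quantile normalization, median centring, no pseudocount, array weights or all 9 arrays, 2 with a filter at the 40th or the 60th percentile and 2 with all 9 arrays and the filter together, the last chosen after seeing the data. It was 0 to 1 with 1 array left out, 1 without line 409 replicate 3. For 266680_s_at the limma adjusted p was 0.0477 with quantile normalization, 0.0349 with median centring, 0.00768 without a pseudocount, 0.0251 with array weights, 0.00101 and 0.00155 with the filters, 0.294 with all 9 arrays, 0.902 with the replicate block and 0.0232 to 0.999 with 1 array left out. For AT5G22850 it was 0.0118 and 0.0218 with the filters, 0.0419 with all 9 arrays, 0.902 with the block and 0.493 to 0.999 with 1 array left out. The filters test fewer probe sets, and the cause of the other shifts was not tested. Probe sets without overlap and higher in line 409, 1406 in the fit reported, were 762 and 502 with the filters, 874 among those with 1 gene and 2342 to 3063 with 1 array left out, since 3 values against 2 separate more easily. The lower ones, 1075, were 556 with the filter at the 60th percentile, 598 with 1 gene and 1817 to 2556 with 1 array left out. The bright genes, 425 higher and 393 lower, were 666 to 931 and 636 to 895 with 1 array left out, and the higher ones 270 with the 60th percentile. The higher share of all without overlap was 56.7%, and 51.1% with quantile normalization, 52.4% with median centring and 49.1% with the filter at the 40th percentile. Of 1244 alternative values of the 71 named probe sets, 1232 kept direction and side of the threshold, 12 passed it, all for AT5G22850 or 266680_s_at, and none turned. The named probe sets were picked for values without overlap. Leaving out an array, filtering or changing the pseudocount could therefore not turn them, and the kept direction is no evidence of stability. Of 508 alternative medians of gene lists, 24 moved by more than the spread between arrays. Dim probe sets limit what can be seen, since 9507 were bright in neither line.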

Other observations

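A few bright genes of membranes, lipids, signalling and RNA also separated the lines and were picked after their values were seen. Each had limma adjusted p = 0.863. AT1G17500, a P4-type ATPase that flips lipids across membranes, had 72.6, 88.7 and 93.6 in line 409 and 62.3, 56.8 and 53.0 in line 348, with the control at 56.3 to 61.4. CHX16, a cation/proton exchanger, had 25.1, 22.6 and 41.2 in line 409 against 18.7, 15.7 and 17.8 in line 348, and the control overlapped line 409 only. AT4G19380, of the long-chain fatty alcohol oxidase family, had 30.2, 27.6 and 30.0 in line 409 and 23.0, 19.6 and 14.9 in line 348, with the control above both at 30.4 to 39.5.

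AT4G31860, a protein phosphatase of the PP2C family, was higher at 123, 127 and 128 in line 409 and 99.8, 108 and 93.3 in line 348, a log2 change of 0.32 with SE 0.116. LSM3A, of the ring complexes that act in splicing and mRNA decay, was lower at 76.6, 71.3 and 79.1 in line 409 and 94.0, 91.6 and 92.6 in line 348, a log2 change of -0.28 with SE 0.126. For both the control overlapped line 348 only.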
